A study of Mus musculus with 11 samples.

Results

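Voltage-gated sodium channels, voltage-gated calcium channels and the hyperpolarization-activated HCN channels set how a muscle fiber, an axon or a pacemaker cell responds to a change of membrane voltage. The genes of these 3 families were followed through bulk RNA-seq of muscle spindles and of adjacent extrafusal muscle from the deep masseter of the mouse. Genes were taken by symbol: sodium channel pore and beta subunits (*Scn*), calcium channel pore, alpha2delta, beta and gamma subunits (*Cacna1*, *Cacna2d*, *Cacnb* and *Cacng*) and HCN channels (*Hcn*). Of 44 such genes, 41 had a row among the 22384 genes of the table. *Cacna1f*, *Cacng3* and *Cacng5* had none and are not analysed here.

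The spindle group held 5 libraries, from mice 9, 10, 12, 13 and 16. The muscle group held 6 libraries, from the same mice and mouse 11, and consisted of extrafusal fibers next to the spindles. All mice carried the *Piezo2* EGFP-IRES-Cre allele and a tdTomato reporter. Spindles were found by a fluorescence that follows Cre driven from *Piezo2*, a gene of mechanosensory neurons. Within the spindle the paper saw tdTomato in intrafusal fibers and capsule cells, and did not detect it in the sensory endings. Intact spindles were cut out by hand as bundles of several spindles. A spindle library therefore mixes intrafusal fibers, sensory and motor nerve endings, Schwann cells and capsule, and can include extrafusal fibers. The methods give the lines as Jackson Laboratory stocks on B6(SJL) (*Piezo2*) and B6.Cg (tdTomato) backgrounds. Age and sex of the sequenced mice are not given in the sources used here.

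The pore subunit of a sodium or calcium channel opens on depolarization, and accessory subunits shape its gating and carry it to the membrane. Adult skeletal muscle relies on *Scn4a* for the action potential and on the *Cacna1s* complex as the voltage sensor of excitation-contraction coupling. The heart uses *Cacna1c* and *Hcn4*, and neurons use many of the other pore genes. HCN channels open on hyperpolarization and pass an inward current, best known as the pacemaker current of the sinoatrial node and as a current of sensory neurons.

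In these libraries the channel genes of skeletal muscle were lower in spindle, and many genes of neuronal type were higher. The largest changes upward were in *Cacna1e*, *Hcn4* and *Cacna2d4*, each with a log2 fold change of spindle over muscle above 4.9 in the fit to all libraries. Calls required a mean normalized count of 5 or more, an adjusted p of 0.05 or less and a log2 fold change of 1 or more in either direction. By this rule 19 of the 41 genes were called higher in spindle, where 11.0% of all genes were, and 4 were called lower, where 1.8% of all genes were. The 4 called lower were *Scn4a*, *Cacna1s*, *Cacng1* and *Cacng6*. With the minimum fold change dropped, 20 genes were higher (15.8% of all genes) and 9 were lower (15.0% of all genes).

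The minimum mean count was passed by 37 of the 41 genes, and the other 4 were *Scn10a*, *Scn11a*, *Cacna1i* and *Cacng8*. The median log2 fold change was 1.45 over the 41 genes and 0.29 over all genes tested. Every spindle library lay above every muscle library for 12 of the 41 genes (9.15% of all genes), and below for 7 (8.65% of all genes). Grouped by the tissue in which each isoform is best known, the 6 skeletal muscle isoforms had a median of -1.09, with 4 called lower. The 24 neuronal isoforms had a median of 1.94, with 13 called higher and 0 called lower, and 1 more of them, *Cacng7*, was lower when no minimum fold was asked.

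**Figure D1:**
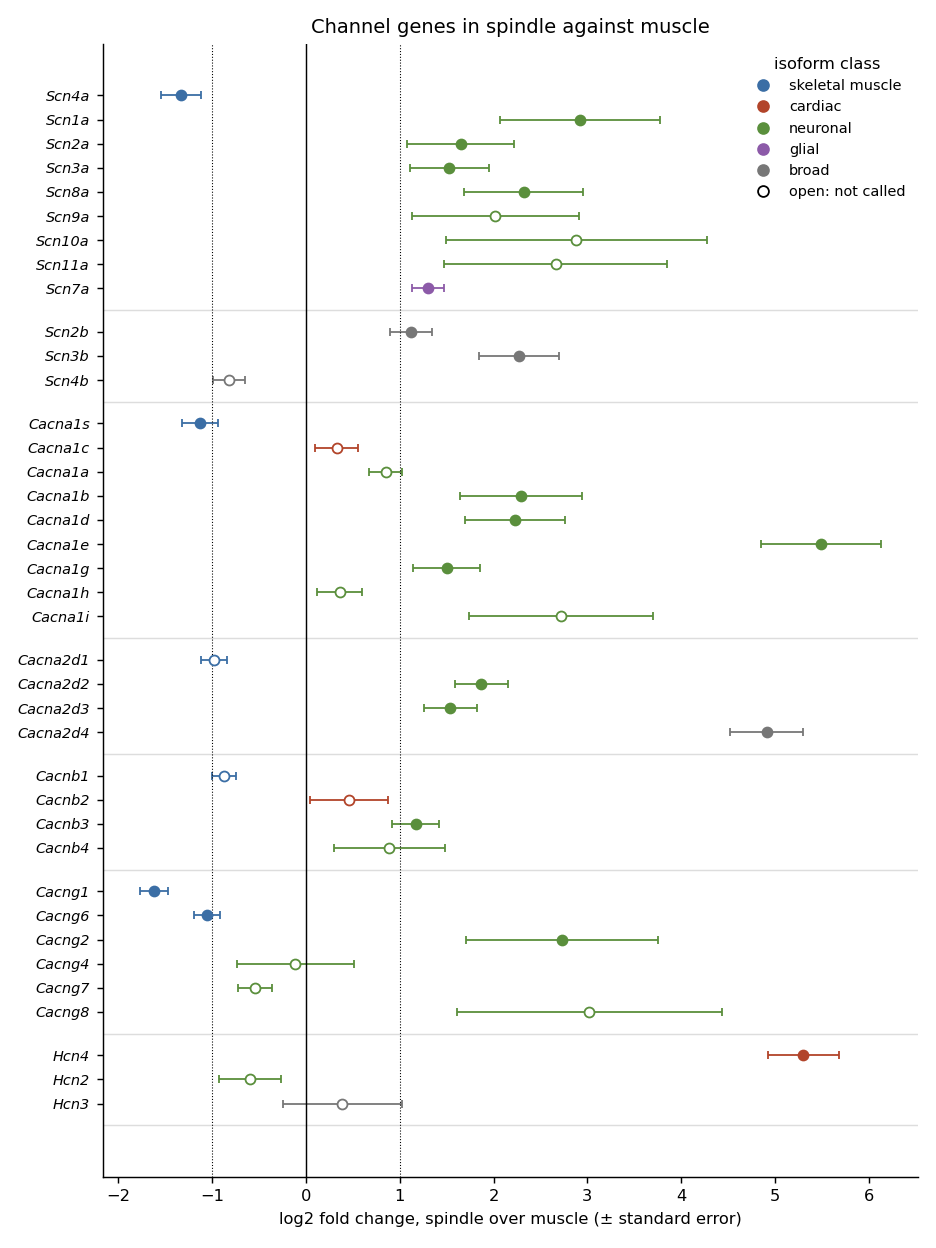
Log2 fold change of spindle over muscle for the channel genes described here (points, with standard errors; 5 spindle and 6 muscle libraries), in blocks by family and colored by isoform class. Filled points were called and open ones were not, and the dotted lines mark the minimum change of 1. All 6 skeletal muscle isoforms lie left of 0, and *Cacna1e*, *Hcn4* and *Cacna2d4* lie farthest to the right.

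Total counts per library lay between 8354260 and 19668038 in spindle and between 9690335 and 23430654 in muscle. Mitochondrial reads were 22.6 to 38.2% of a spindle library and 16.7 to 24.8% of a muscle library. The spindle label was checked against markers. *Slc17a7*, the vesicular glutamate transporter of proprioceptive endings, had 3.53 to 4.76 CPM in spindle and 0.0 to 0.154 CPM in muscle. It is on a list of 7 proprioceptive neuron markers, of which 6 were called higher, where 11.0% of all genes were. *Pvalb* on that list was called lower, with means of 765 CPM in spindle and 4350 CPM in muscle. With *Pvalb* the list summed to 470 to 1050 CPM in spindle and 2950 to 5920 CPM in muscle. All 10 genes on a list of intrafusal and slow fiber markers were called higher, against the same 11.0% of all genes. Spindle 16 stood apart from the other spindle libraries in odorant receptor genes, which belong to the olfactory epithelium. They summed to 17.2 CPM there, against 144 to 228 CPM in the other 4 spindle libraries. In muscle the same receptor sum was 49.9 and 63.3 CPM in muscle 10 and 12 and 9.22 to 18.3 CPM in the other 4 libraries. Calls and log2 fold changes without spindle 16 and muscle 12, and without spindle 10, 12 and 13, follow the values of the single genes.

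The promoters of 4 genes are printed here to set both directions of change side by side, *Hcn4* and *Cacna1e* from the genes with the largest rise and *Scn4a* and *Cacna1s* from the genes that fell. Each holds 250 bases before and 50 after a RefSeq start site on GRCm38.p6, written 5′ to 3′ in the direction of the gene, with matches to the motifs searched in capitals. The start sites are those of RefSeq and can differ from the gene starts of the annotation used for exon lengths. The *Cacna1e* and *Scn4a* windows lie inside the genes of that annotation, which start at 154884501 and 106353288 on the minus strand. Their motif matches and base content describe these RefSeq start sites only. *Hcn4* is at chr9:58822699-58822998 on the plus strand, *Cacna1e* at chr1:154725871-154726170 on the minus strand, *Scn4a* at chr11:106349341-106349640 on the minus strand and *Cacna1s* at chr1:136052561-136052860 on the plus strand.
Hcn4: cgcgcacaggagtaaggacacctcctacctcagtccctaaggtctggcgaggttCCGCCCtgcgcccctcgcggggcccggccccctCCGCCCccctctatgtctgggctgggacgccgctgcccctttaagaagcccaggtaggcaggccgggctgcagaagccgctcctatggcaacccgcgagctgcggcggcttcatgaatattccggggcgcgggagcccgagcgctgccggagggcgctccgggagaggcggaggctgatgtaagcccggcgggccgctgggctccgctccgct
Cacna1e: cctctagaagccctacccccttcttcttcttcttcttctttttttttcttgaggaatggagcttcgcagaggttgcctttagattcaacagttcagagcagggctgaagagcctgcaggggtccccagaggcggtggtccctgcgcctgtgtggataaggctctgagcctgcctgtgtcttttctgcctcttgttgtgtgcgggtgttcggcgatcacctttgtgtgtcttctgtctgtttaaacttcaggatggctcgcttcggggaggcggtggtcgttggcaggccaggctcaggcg
Scn4a: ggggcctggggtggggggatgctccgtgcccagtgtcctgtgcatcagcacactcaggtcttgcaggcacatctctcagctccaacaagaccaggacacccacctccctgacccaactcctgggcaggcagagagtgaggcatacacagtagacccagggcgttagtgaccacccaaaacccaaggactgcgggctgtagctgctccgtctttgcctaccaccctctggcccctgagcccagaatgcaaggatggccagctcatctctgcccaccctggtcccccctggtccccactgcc
Cacna1s: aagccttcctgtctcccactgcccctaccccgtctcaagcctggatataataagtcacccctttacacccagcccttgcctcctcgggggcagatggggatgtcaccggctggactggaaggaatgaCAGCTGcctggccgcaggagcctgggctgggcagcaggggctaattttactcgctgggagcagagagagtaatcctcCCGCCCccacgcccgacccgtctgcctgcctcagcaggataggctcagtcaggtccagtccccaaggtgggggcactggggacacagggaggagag

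The search covered both strands for the E-box CAGCTG, bound by myogenic factors, the MEF2 site, the GC box GGGCGG and the TATA box TATAAA, and the MEF2 site and the TATA box can share letters. *Cacna1s* held CAGCTG at base -123 from its start and a GC box, *Hcn4* held 2 GC boxes, and neither *Scn4a* nor *Cacna1e* held a match in this window. G and C made up 71.7% of the *Hcn4* promoter, 55.3% of *Cacna1e*, 63.0% of *Scn4a* and 63.0% of *Cacna1s*, against a median of 52.7% over all 32851 promoters. RefSeq promoters were found for 29 of the 41 genes, 39 in all. Of these, 12 held CAGCTG (16.3% of all promoters), 16 held GGGCGG (35.7%), 2 held TATAAA (13.6%) and 0 held the MEF2 site (3.19%). Among genes called higher 5 of 17 promoters held CAGCTG, and among genes called lower 1 of 3 did. A match is a description of the letters and not of a bound site.

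Values are CPM, the reads of a gene scaled to a common library size after TMM normalization, given in spindle for mice 9, 10, 12, 13 and 16 in that order, and in muscle as the lowest, the median and the highest of the 6 libraries. Fold changes are log2 values of spindle over muscle with their standard error (edgeR, n = 5 spindle and 6 muscle libraries), and p-values are adjusted over all genes of the table. Gene positions are on GRCm38, from GENCODE vM21. In bulk RNA, fewer cells of a type and less RNA per cell cannot be told apart, for any of the genes below.

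The genes of the skeletal muscle action potential and of the voltage sensor fell in spindle. *Scn4a* (chromosome 11, 106318592 to 106353288), the main sodium channel of adult skeletal muscle, had 80.7, 142, 111, 111 and 197 CPM in spindle, against 198, 329 and 391 CPM in muscle. It fell by 1.33 ± 0.21 on the log2 scale (edgeR adjusted p = 1.03e-04), and the groups did not overlap, although spindle 16 at 197 CPM and the lowest muscle library, muscle 12, at 198 CPM nearly met. *Cacna1s* (chromosome 1, 136052750 to 136119822), the calcium channel pore that senses voltage in the transverse tubule, had 159, 327, 263, 259 and 400 CPM in spindle, against 426, 649 and 720 CPM in muscle. Its log2 fold change was -1.13 ± 0.19 (edgeR adjusted p = 2.10e-04), and it was -0.98 and no longer called without spindle 9, the lowest library. Exons of *Gm37759* on the opposite strand cover 20.0% of the *Cacna1s* exons, and that gene had 169 reads in all 11 libraries, against 86126 reads for *Cacna1s*.

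The accessory subunits of the same complex moved the same way. *Cacng1* (chromosome 11, 107703218 to 107716522), the gamma subunit of the skeletal muscle channel, had 107, 159, 173, 137 and 212 CPM in spindle, against 436, 483 and 527 CPM in muscle and fell furthest of the 41 genes. Its log2 fold change was -1.62 ± 0.15 (edgeR adjusted p = 1.74e-07). *Cacng6* (chromosome 7, 3424195 to 3435667), a close relative of *Cacng1*, had 52.3, 49.9, 54.3, 52.6 and 77.7 CPM in spindle, against 94.3, 119 and 137 CPM in muscle, with the highest spindle value in spindle 16. Its log2 fold change of -1.05 ± 0.14 (edgeR adjusted p = 1.28e-05) is near the minimum of 1, and 6 of 18 alternative settings ended the call. With library size alone as the scaling, which raised the median of all genes by 0.31 on the log2 scale, *Cacng1* was still called (-1.30), and *Scn4a* (-1.0), *Cacna1s* (-0.80) and *Cacng6* (-0.73) were lower but not called.

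The alpha2delta and beta subunits of skeletal muscle stayed just under the minimum change. *Cacna2d1*, the alpha2delta subunit of muscle and the target of gabapentin, had 192, 184, 148, 226 and 232 CPM in spindle, against 340, 385 and 448 CPM in muscle, with no overlap of the groups. It had a log2 fold change of -0.98 ± 0.14 (edgeR adjusted p = 2.07e-05), and it passed the minimum in 6 of 18 settings, with a range of -1.06 to -0.67. *Cacnb1*, the beta subunit that skeletal muscle needs to place the channel at the tubule, had 123, 161, 164, 148 and 176 CPM in spindle, against 237, 278 and 330 CPM in muscle. This difference of -0.87 ± 0.13 (edgeR adjusted p = 4.68e-05) also came with no overlap.

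Among sodium channel beta subunits, *Scn4b* was lower in spindle and the sparser *Scn2b* and *Scn3b* were higher. *Scn4b*, a subunit tied to resurgent current in neurons and also expressed in muscle, had 126, 179, 184, 185 and 292 CPM in spindle, against 261, 362 and 388 CPM in muscle. Its groups overlapped through spindle 16 and muscle 12, and its log2 fold change was -0.82 ± 0.17, or -1.08 and called without these 2 libraries. *Scn2b* had 5.89, 6.74, 5.2, 4.01 and 5.59 CPM in spindle, against 2, 2.27 and 3.67 CPM in muscle (log2 fold change 1.12 ± 0.22), and *Scn3b* had 3.44, 1.81, 0.867, 1.2 and 2.03 CPM in spindle, against 0.129, 0.396 and 0.534 CPM in muscle (log2 fold change 2.27 ± 0.43), with adjusted p of 5.74e-04 and 4.33e-04 by edgeR. Both are best known from neurons and heart, and neither pair of groups overlapped.

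**Figure D2:**
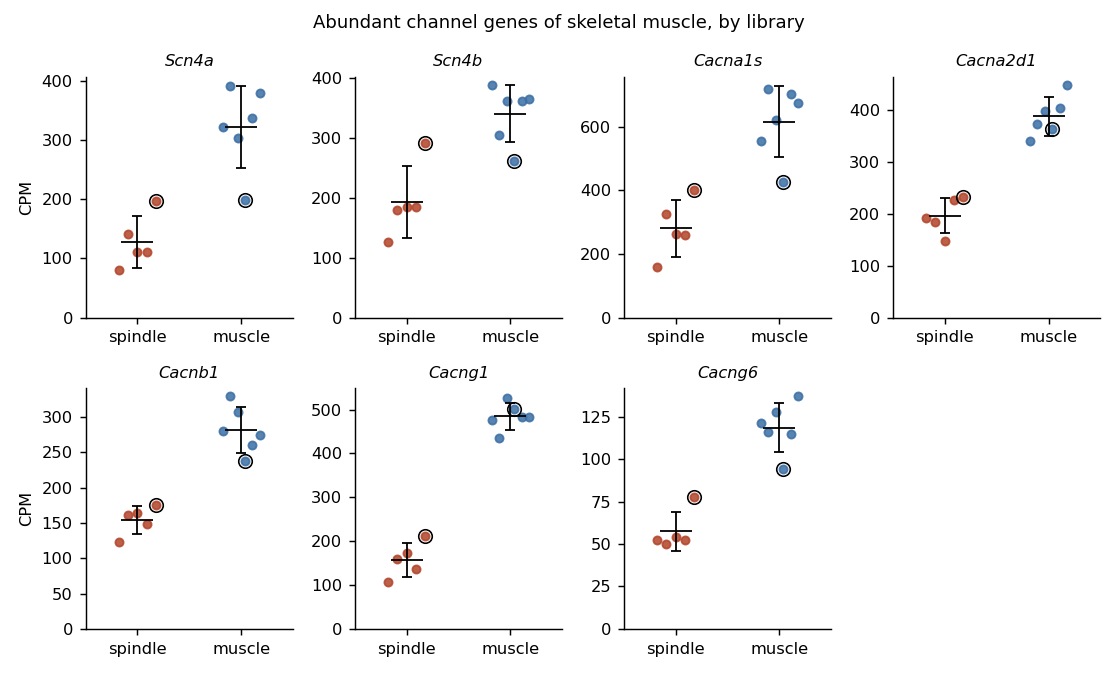
CPM of 7 abundant channel genes of skeletal muscle in each library, spindle left and muscle right of each panel, with the mean and SD (bars; n = 5 spindle, 6 muscle). Circled points are spindle 16 and muscle 12. In 6 panels every spindle point lies below every muscle point, and in *Scn4b* spindle 16 at 292 CPM lies above muscle 12 at 261 CPM.

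Other fiber genes moved with this set. On a list of 10 fast extrafusal fiber markers, 6 were called lower (1.8% of all genes) and 1, *Myh4*, was called higher (11.0% of all genes). The list had a median log2 fold change of -1.09 and summed to 32800 to 49300 CPM in spindle and 85900 to 109000 CPM in muscle. The 6 skeletal muscle channel isoforms summed to 715 to 1290 CPM in spindle and 1820 to 2400 CPM in muscle. Both sums were highest among spindle libraries in spindle 16. The part of fiber content in the lower channel genes was not tested. Compared per kilobase of exon, the 8 most abundant of the 41 genes were the same in both tissues, among them *Cacng1*, *Cacna1s*, *Scn4b*, *Cacnb1*, *Cacng6*, *Scn4a* and *Cacna2d1*. *Cacng1* was at 126 CPM per kb in spindle and 388 in muscle, and *Scn4a* at 18.2 in spindle and 45.7 in muscle.

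Among HCN channels, *Hcn4* was high in every spindle library and near 0 in every muscle library. *Hcn4* (chromosome 9, 58823412 to 58863175), the main pacemaker channel of the sinoatrial node, had 25, 17.1, 13.1, 13.7 and 19.3 CPM in spindle, against 0, 0.283 and 0.934 CPM in muscle. It rose by 5.30 ± 0.38 on the log2 scale (edgeR adjusted p = 3.43e-08), on 1335 reads in spindle and 45 reads in muscle. The lowest spindle library, spindle 12 at 13.1 CPM, was far above the highest muscle library, muscle 12 at 0.934 CPM. Spindle 16 had 19.3 CPM, the second highest value, and without spindle 16 and muscle 12 the log2 fold change was 5.58. The call held under all 18 alternative settings, with log2 fold changes of 5.09 to 5.63.

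*Hcn2*, of brain and nociceptors, averaged 2.59 ± 1.53 CPM in spindle and 4.01 ± 0.93 CPM in muscle (SD, n = 5 and 6) and was not called (log2 fold change -0.59 ± 0.33, edgeR adjusted p = 0.161). *Hcn3* was at or below 0.783 CPM in all 11 libraries, and exons of *Pklr* overlap 17.1% of its own.

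Within the HCN family the leading gene differed between the tissues. Per kilobase of exon, *Hcn4* made up 70.8 ± 12.0% of HCN reads in spindle and 4.98 ± 4.69% in muscle (SD, n = 5 and 6). *Hcn2* made up 20.4 ± 10.6% in spindle and 85.6 ± 6.78% in muscle. The *Hcn4* share was 58.6 to 89.1% over spindle libraries and 0.0 to 12.0% over muscle libraries, so that no library of either tissue had the order of the other. In absolute terms *Hcn4* stood at 2.88 CPM per kb in spindle and 0.0676 in muscle, and ranked 10 of 41 genes in spindle and 23 of 41 in muscle.

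In the pore families the skeletal muscle gene led in both tissues. *Scn4a* took 85.4 ± 4.34% of the sodium pore reads per kilobase in spindle and 97.5 ± 1.42% in muscle, and *Scn7a* 10.6 ± 3.09% in spindle and 1.95 ± 0.952% in muscle. *Cacna1s* took 87.9 ± 4.12% of the calcium pore reads in spindle and 96.9 ± 0.873% in muscle, and *Cacna1a* 6.19 ± 2.42% in spindle and 1.61 ± 0.489% in muscle. Spindle 16 had the highest share of *Scn4a* (92.8%) and of *Cacna1s* (92.1%) among spindle libraries. In the alpha2delta family *Cacna2d4* made up 5.09 ± 2.51% in spindle and 0.109 ± 0.0842% in muscle, and *Cacna2d1* 89.0 ± 3.52% in spindle and 98.9 ± 0.213% in muscle. In the gamma family the share of *Cacng6* was higher in spindle, at 18.5 ± 2.81% against 13.2 ± 1.54% in muscle, and *Cacng1* had the larger fall. These shares are descriptions and carry no test.

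**Figure D3:**
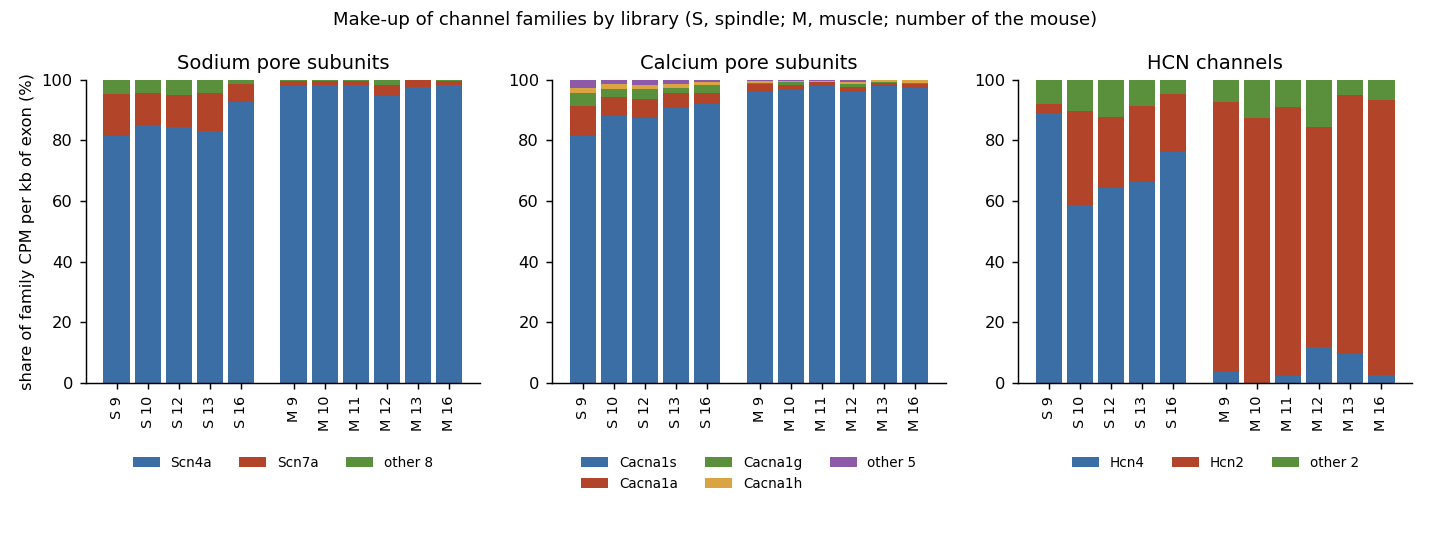
Share of each gene in the CPM per kilobase of exon of its family, 1 bar per library (S, spindle; M, muscle; number of the mouse), for sodium pore subunits, calcium pore subunits and HCN channels. *Scn4a* and *Cacna1s* lead their families in all 11 bars, while *Hcn4* leads the HCN bars of all 5 spindle libraries and *Hcn2* those of all 6 muscle libraries.

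Among calcium channel genes, 1 pore and 1 alpha2delta gene joined *Hcn4* at the top. *Cacna1e* (chromosome 1, 154390731 to 154884501), the pore of R-type neuronal current, had 5.22, 3.07, 3.06, 3.61 and 0.586 CPM in spindle, against 0, 0.05 and 0.2 CPM in muscle. It rose by 5.49 ± 0.64 (edgeR adjusted p = 2.66e-06), on 209 reads in spindle and 6 in muscle, and spindle 16 at 0.586 CPM was the lowest spindle library. *Cacna2d4* (chromosome 6, 119236526 to 119352407), an alpha2delta subunit known from retinal photoreceptors, had 3.56, 14.2, 8.73, 8.02 and 7.39 CPM in spindle, against 0.0972, 0.245 and 0.773 CPM in muscle. It rose by 4.91 ± 0.39 (edgeR adjusted p = 2.06e-08), on 683 reads in spindle and 27 in muscle, and here spindle 16 at 7.39 CPM lay within the range of the others. Both calls held under all 18 alternatives, with log2 fold changes of 5.18 to 6.43 for *Cacna1e* and 4.27 to 5.22 for *Cacna2d4*.

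The other alpha2delta genes of neurons rose less. *Cacna2d2*, of cerebellar and other neurons, had 3, 2.71, 2.66, 4.25 and 3.65 CPM in spindle, against 0.534, 0.876 and 1.16 CPM in muscle (log2 fold change 1.87 ± 0.28). *Cacna2d3*, which has a role in pain sensing in flies and mice, had 3.11, 6.92, 5.9, 6.34 and 4.73 CPM in spindle, against 0.773, 1.92 and 2.93 CPM in muscle (log2 fold change 1.54 ± 0.28). Neither overlapped between the groups, and the edgeR adjusted p was 3.91e-05 for *Cacna2d2* and 3.34e-04 for *Cacna2d3*. *Cacnb3*, a beta subunit of neurons and smooth muscle, had 6.22, 6.14, 3.24, 2.97 and 5.36 CPM in spindle, against 1.39, 2.23 and 2.58 CPM in muscle and also did not overlap (log2 fold change 1.17 ± 0.25, edgeR adjusted p = 0.0013). *Cacnb2*, of heart, and *Cacnb4*, of cerebellum, were not called, at 0.347 to 1.75 CPM in spindle and 0.0972 to 0.801 CPM in muscle over both genes.

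The pore genes of presynaptic calcium current gave a small and a larger change. *Cacna1a*, the P/Q-type pore of motor nerve terminals, had 34, 39.4, 33.8, 25.3 and 25.6 CPM in spindle, against 12.2, 16.5 and 25.2 CPM in muscle. It was higher by 0.85 ± 0.18 (edgeR adjusted p = 0.00136), and not called for its size, although the groups did not overlap. *Cacna1b*, the N-type pore of many synapses, had 1.33, 0.783, 0.809, 1.68 and 0.316 CPM in spindle, against 0, 0.258 and 0.287 CPM in muscle (log2 fold change 2.29 ± 0.65, edgeR adjusted p = 0.0101). Its lowest spindle value, in spindle 16, was 7 reads.

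Low-threshold and L-type pores differed gene by gene. *Cacna1g*, a T-type pore of thalamus and sinoatrial node, had 13.3, 15.1, 14.2, 7.86 and 17.9 CPM in spindle, against 2.06, 4.48 and 10.2 CPM in muscle, with spindle 16 highest and an overlap through spindle 13 and muscle 10. It rose by 1.5 ± 0.36 (edgeR adjusted p = 0.00644). The other T-type pores were not called: *Cacna1h* had 4.33 to 9.33 CPM in spindle and 3.14 to 7.76 CPM in muscle, and *Cacna1i* 32 reads in spindle and 5 in muscle. *Cacna1d*, the L-type pore of hair cells and sinoatrial node, had 0.667, 1.57, 1.62, 1.04 and 1.13 CPM in spindle, against 0, 0.224 and 0.601 CPM in muscle. Its log2 fold change was 2.23 ± 0.53 (edgeR adjusted p = 0.00293), and the groups did not overlap. Exons of *Chdh* on the opposite strand cover 4.67% of the *Cacna1d* exons. That gene had 228 reads in all 11 libraries, against 124 reads for *Cacna1d*. Whether *Chdh* reads entered the *Cacna1d* count was not tested. The L-type pore of heart and smooth muscle, *Cacna1c*, had 9.11, 8.61, 8.04, 4.09 and 7.93 CPM in spindle, against 4.02, 5.53 and 8.63 CPM in muscle, which overlapped widely (log2 fold change 0.33 ± 0.23, edgeR adjusted p = 0.243).

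Among the sodium channel pores, *Scn7a* and some pores of nerve rose. *Scn7a* (chromosome 2, 66673425 to 66784914), a sodium-sensing member of the family found in glia, had 14.2, 17.8, 14.4, 17.5 and 12.6 CPM in spindle, against 4.89, 5.68 and 8.34 CPM in muscle. It rose by 1.30 ± 0.17 (edgeR adjusted p = 8.70e-06) without overlap.

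Of the brain and nerve pores 4 were called, on few reads. *Scn8a*, the channel of mature nodes of Ranvier, had 0.444, 1.93, 0.752, 1.52 and 0.27 CPM in spindle, against 0.0958, 0.163 and 0.386 CPM in muscle (log2 fold change 2.32 ± 0.63, edgeR adjusted p = 0.00738). *Scn1a*, a channel of interneurons and of myelinated sensory axons, had 1.11, 0.843, 1.62, 1.04 and 0.0451 CPM in spindle, against 0, 0.0535 and 0.515 CPM in muscle (log2 fold change 2.92 ± 0.85, edgeR adjusted p = 0.0115), and its value in spindle 16 was 1 read. *Scn3a*, strongest before birth, had 2.11, 3.19, 1.79, 3.29 and 0.856 CPM in spindle, against 0.129, 0.653 and 1.33 CPM in muscle (log2 fold change 1.53 ± 0.42). In *Scn2a*, of excitatory neurons, the values were 0.111, 2.77, 1.62, 1.44 and 0.766 CPM in spindle, against 0.154, 0.339 and 1 CPM in muscle, with the lowest value of all in spindle 9. Its log2 fold change was 1.65 ± 0.57 (edgeR adjusted p = 0.0294), and 7 of 18 alternatives ended the call. Among these were each mouse taken as a block (1.26), the omission of spindle 10 (1.2), of spindle 12 (1.57), and of muscle 11 (1.45), 13 (1.54) or 16 (1.5). All 4 groups of values overlapped with muscle.

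The pores of pain fibers were close to the limit of detection. *Scn9a* had 0.0 to 1.39 CPM in spindle and 0.0 to 0.644 CPM in muscle and was not called (log2 fold change 2.02 ± 0.89, edgeR adjusted p = 0.0777). *Scn10a* had 16 reads in spindle and 3 in muscle, and *Scn11a* had 18 in spindle and 3 in muscle. The ratio of their reads, scaled for depth, was 6.99 (95% interval 2.0 to 37.4) for *Scn10a* and 7.86 (2.3 to 41.7) for *Scn11a*, intervals that cover counting error only. Of the *Scn10a* reads, 10 of 16 in spindle came from spindle 9 and all 3 in muscle from muscle 12. Its log2 fold change was 2.88 with every library, 1.39 without spindle 9 and 5.26 without muscle 12, where no read was left in muscle, and it was not called in any of these. On chromosome 2, *Scn3a* and *Scn2a* lie between 65457118 and 65767447, and *Scn1a*, *Scn9a* and *Scn7a* between 66270778 and 66784914. *Scn10a* and *Scn11a* are neighbors on chromosome 9.

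Of the gamma subunits known as AMPA receptor partners, 1 was called. *Cacng2*, stargazin, had 0.556, 0.963, 0.867, 2.09 and 0 CPM in spindle, against 0, 0.0772 and 0.515 CPM in muscle (log2 fold change 2.73 ± 1.02, edgeR adjusted p = 0.0418), and 9 of 17 alternatives ended this call, made on 62 reads in spindle and 11 in muscle. *Cacng7* was lower by its test, with 6.56, 8.43, 10.5, 7.7 and 8.52 CPM in spindle, against 9.42, 11.7 and 17.3 CPM in muscle, but its change was small (-0.54 ± 0.18, edgeR adjusted p = 0.0251) and the groups overlapped. *Cacng8* had 15 reads in spindle and 2 in muscle, a ratio of 9.83 (95% counting interval 2.29 to 88.6), and *Cacng4* had 51 reads in spindle and 69 in muscle. *Cacng7*, *Cacng8* and *Cacng6* are neighbors on chromosome 7, and *Cacng6* alone of them was called lower.

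**Figure D4:**
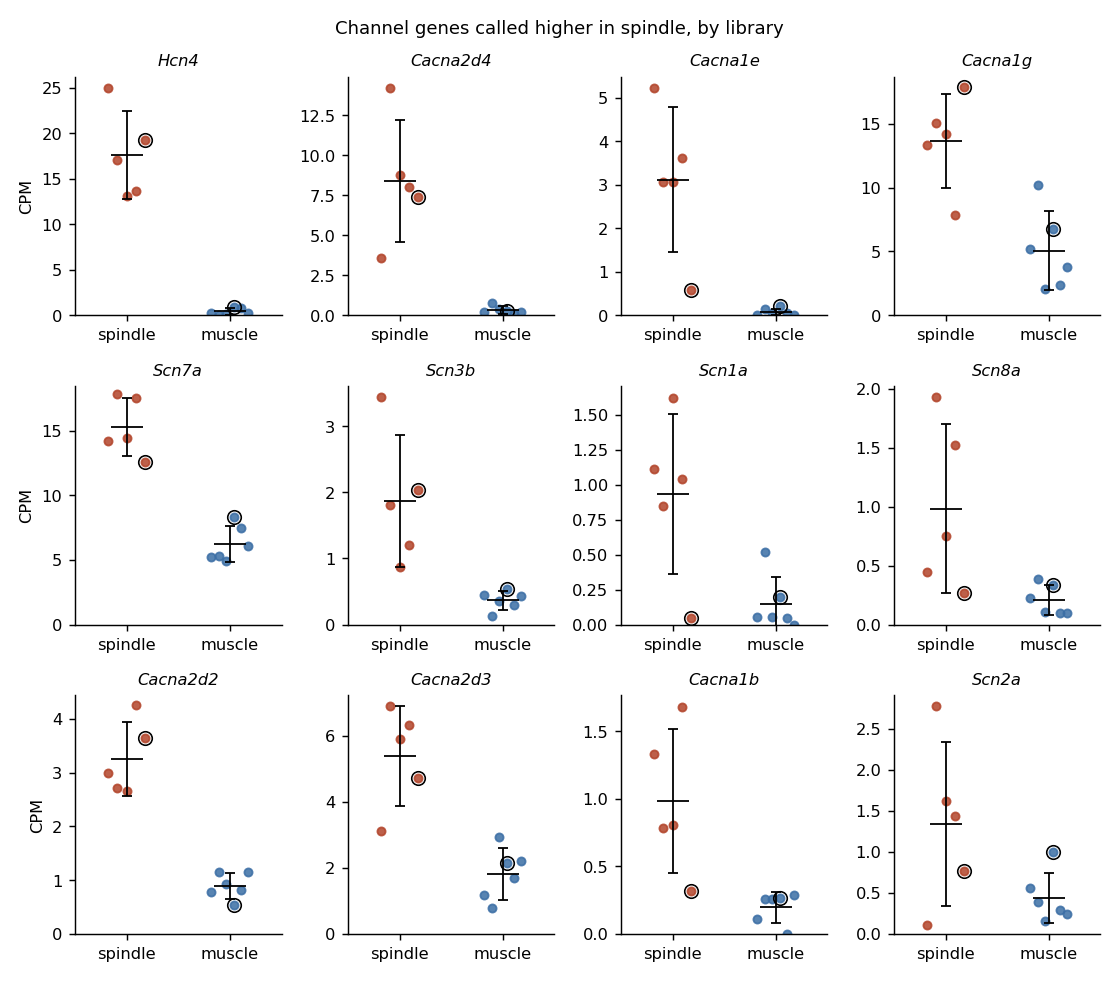
CPM of 12 channel genes called higher in spindle, by library, spindle left and muscle right of each panel, with the mean and SD (bars; n = 5 spindle, 6 muscle). Circled points are spindle 16 and muscle 12. In *Hcn4* and *Cacna2d4* spindle 16 lies among the other spindle points, and in *Scn1a* and *Scn8a* it lies among the muscle points.

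The genes called higher fell into sets by how they stood in spindle 16. Of the 19, 8 had their lowest spindle value there, among them *Scn1a*, *Scn3a*, *Scn8a*, *Scn7a*, *Cacna1b*, *Cacna1e* and *Cacng2*. In 6, spindle 16 was at or below the highest muscle library, among them *Scn1a*, *Scn2a*, *Scn3a*, *Scn8a* and *Cacng2*. *Cacna1g* was highest in spindle 16. For 9 of the 19, *Hcn4*, *Cacna2d4*, *Cacna2d2*, *Cacna2d3*, *Cacna1d*, *Cacnb3*, *Scn2a*, *Scn2b* and *Scn3b*, the value there was within the range of the other 4 spindle libraries. On a list of 14 neuron markers, 11 had a row, and *Nefl*, *Nefm* and *Nefh* had none. Of the 11, 7 were called higher, where 11.0% of all genes were. The list summed to 17.9 to 26.3 CPM in spindle and 3.86 to 12.2 CPM in muscle. The sum was 17.9 CPM in spindle 16 and 18.1 to 26.3 CPM in the other spindle libraries. Single markers, picked after their values were seen, differed there: *Rbfox3*, *Snap25* and *Elavl3* were lowest in spindle 16 (0.0451 CPM each), and *Stmn2* (8.38 CPM), *Tubb3* (1.04 CPM) and *Prph* (2.03 CPM) were highest among spindle libraries. On a list of myelinating Schwann cell markers 9 of 10 were called higher, with sums of 697 to 1310 CPM in spindle and 104 to 358 CPM in muscle. On other lists, 6 of 6 macrophage, 4 of 5 perineurial, 3 of 6 fibroblast and 2 of 5 non-myelinating Schwann cell markers were called higher. Of smooth muscle and pericyte markers 2 of 7 were, of endothelium 0 of 5 and of motoneurons 0 of 3. The part of nerve content or of other cells in the channel genes was not tested.

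When spindle 10, 12 and 13 were left out, where odorant receptor sums were highest, spindle 9 and 16 remained, and 9 of the 19 genes were still called higher. These were *Scn7a*, *Scn2b*, *Scn3b*, *Cacna1e*, *Cacna1g*, *Cacna2d2*, *Cacna2d4*, *Cacnb3* and *Hcn4*. Among the 10 lost were *Scn1a*, *Scn2a*, *Scn3a*, *Scn8a*, *Cacna1b*, *Cacna1d*, *Cacna2d3* and *Cacng2*, which kept positive log2 fold changes between 0.15 in *Scn2a* and 2.08 in *Scn1a*, with fewer libraries in the test. Over all genes 1576 were then called higher, against 2470 with every library, and their median log2 fold change was 0.0, against 0.29. Without spindle 16 and muscle 12, 20 of the 41 genes were called higher and 6 lower, while calls over all genes went up to 2948 higher and 602 lower, against 2470 and 403 with every library. All 19 stayed called, *Scn9a* was added to the higher genes, and *Scn4b* and *Cacna2d1* were added to the lower ones. Spindle 16 was the lowest spindle library in 8 of the 19, and muscle 12 the highest muscle library in 9. Leaving these libraries out widens the gap in such genes, so this fit is no check of the calls. Muscle 10, with a receptor sum of 49.9 CPM, was kept. The log2 fold change in that fit was 3.55 for *Scn1a*, 1.97 for *Scn3a*, 2.83 for *Scn8a*, 2.64 for *Cacna1b* and 6.43 for *Cacna1e*.

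**Figure D5:**
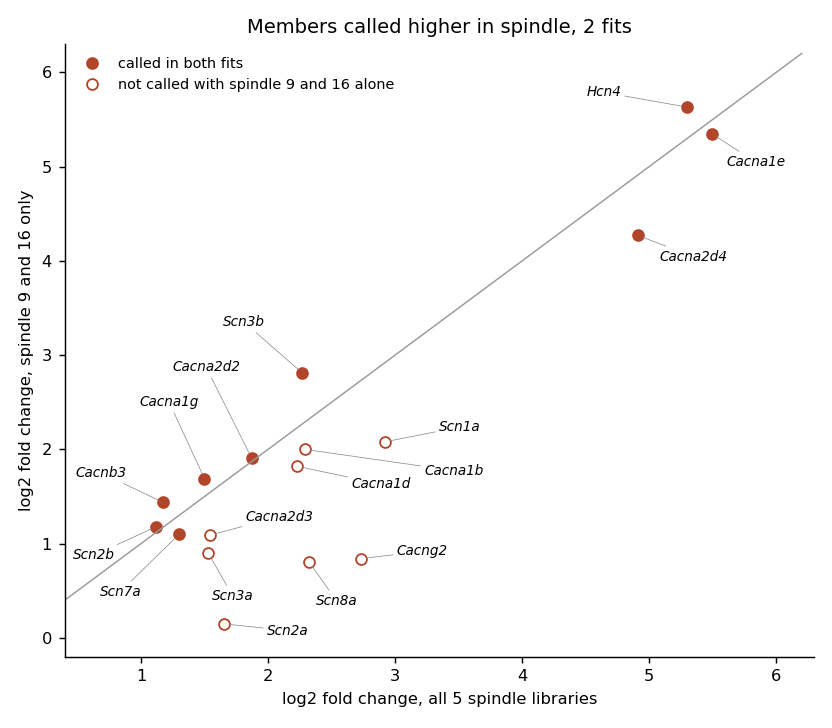
Log2 fold change of spindle over muscle for the genes called higher that are described here, with all 5 spindle libraries (horizontal axis) and with spindle 9 and 16 only (vertical axis), against the same 6 muscle libraries. Filled points were called in both fits and open points only in the first, and the line marks equal values. *Hcn4* and *Cacna1e* lie near the line, and *Scn2a*, *Scn8a* and *Cacng2* lie far below it.

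Partners of the channels were read from 3 lists. Of 10 sodium channel partners 1 was called higher and 1 lower, where 11.0% of all genes were called higher and 1.8% lower, so that the share called higher was near that of all genes. *Fgf14*, an intracellular factor that binds sodium channels of axons, averaged 1.86 ± 0.509 CPM in spindle and 0.36 ± 0.332 CPM in muscle (SD, n = 5 and 6) and rose by 2.46 ± 0.54.

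Of 13 calcium channel partners 3 were called higher and 3 lower, where 11.0% of all genes were called higher and 1.8% lower. *Ryr1*, the release channel that *Cacna1s* opens, fell by 1.28 ± 0.21, *Jph1* by 1.33 ± 0.17 and *Jph2* by 1.11 ± 0.21, the junctophilins that hold the tubule to the store. *Ryr2*, the release channel of heart and neurons, rose by 3.28 ± 1.01, at 0.0902 to 4.49 CPM in spindle and 0.0 to 0.801 CPM in muscle. Of the adaptors *Stac* and *Stac2*, known from neurons, the first rose by 1.70 ± 0.49 and the second by 3.29 ± 0.67. *Stac3*, the adaptor that skeletal muscle needs for coupling, had a log2 fold change of -0.85 ± 0.15 and was not called for its size.

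Of 7 HCN and leak channel partners with a row, 6 were called higher, where 11.0% of all genes were. *Nalcn*, the sodium leak channel that sets resting potential in neurons, had 4.87 to 9.0 CPM in spindle and 0.0 to 0.734 CPM in muscle and rose by 4.77 ± 0.49 (edgeR adjusted p = 1.94e-06). Its auxiliary subunits rose with it: *Unc79* by 3.13 ± 0.72, *Unc80* by 1.78 ± 0.55 and *Fam155a* by 3.23 ± 0.84. *Pex5l*, which carries HCN channels to the membrane, rose by 2.11 ± 0.45, and *Lrmp*, a regulator of *Hcn4* channels, by 1.23 ± 0.44. The genes of the leak channel were lowest among spindle libraries in spindle 16, where *Nalcn* had 4.87 CPM and *Fam155a* 0.0 CPM.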

How the data were processed

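Bulk RNA-seq of 5 spindle and 6 muscle libraries was used, sequenced from polyadenylated RNA. The authors mapped single-end reads with STAR 2.4.2a to the GRCm38 build, annotated by GENCODE, and deposited unnormalized counts of uniquely mapped reads for genes with at least 5 reads in a library. Whether counting used strand is not given in the sources used here. Columns of the authors' DESeq2 1.16.1 values (22 per-sample columns of normalized and regularized log values, and fold changes, p-values and calls) were not used.

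Counts of all 22384 genes were fitted with edgeR 4.0.16 in R 4.3.3 (TMM scaling, robust quasi-likelihood test, no mouse term, Benjamini-Hochberg adjustment over all genes). The thresholds are those of the study. Standard errors are the log2 fold change over the square root of F. On counts simulated for this comparison (22372 genes), 82 of 100 genes changed by a log2 fold change of 1.5 and 100 of 100 changed by 3 were recovered. The changed genes were drawn from genes with higher mean counts than *Scn1a*, *Scn8a*, *Cacna1b* and *Cacng2*. The recovery does not cover genes as sparse as these. Lengths and positions are from GENCODE vM21 on GRCm38, promoters from RefSeq on GRCm38.p6. Called partners are named. Spindle values per library are given for called genes and for uncalled ones with a mean of at least 100. For the same genes muscle is given as the lowest, the median and the highest library. Some of these genes are not reported here. Members, isoform classes and lists were chosen with earlier results of these data known.

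A shared number marks libraries of 1 mouse. Deviations of such pairs from the group means correlated at 0.0929 to 0.308 over 12557 genes. P-values of the main fit set the tissue difference against the spread between these libraries and leave out the pairing by mouse. Alternatives were DESeq2 1.42.0, its size factors in edgeR, library size alone, edgeR's filterByExpr, a replicate block, each library left out and the 2 sets of libraries named in the text.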

Additional observations from a re-analysis of the deposited data

Results flagged for a closer look

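Among 60 groups of library values tested for a value far from the rest, 2 stood out, and chance alone marks about 1 in 20. *Cacna1c* had 4.09 CPM in spindle 13, against 7.93 to 9.11 CPM in the other 4 spindle libraries. *Cacng6* had 77.7 CPM in spindle 16, against 49.9 to 54.3 CPM in the other spindle libraries and 94.3 to 137 CPM in muscle.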

How the results depend on the processing

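The number of genes called higher was 19 with all libraries and 15 to 21 under every alternative but 1: without spindle 10, 12 and 13 it was 9. The number called lower was 4 and stayed at 3 to 6, except with library size alone, where it was 1 (*Cacng1*). That scaling moved the median over all genes by 0.31 on the log2 scale, ended the calls of *Scn4a* (-1.0), *Cacna1s* (-0.80) and *Cacng6* (-0.73) and made *Cacna1a* a call (1.17). Leaving out each library in turn gave 16 to 20 genes higher and 3 to 6 lower. *Cacng6* was at -0.97 and not called with DESeq2, with its size factors and with edgeR's filter, which also removed low genes and left 15 genes higher. The replicate block, in which spindle and muscle are paired by mouse, ended the call of *Scn2a* (1.26) and of no other gene. Signs reversed only in genes that were not called: *Scn9a* (-0.52) and *Hcn3* (-0.35) without spindle 10, 12 and 13, and *Cacng4*, near 0 with all libraries (-0.11), with library size alone (0.22), without spindle 16 and muscle 12 (0.1) and without spindle 9 or spindle 16 (0.16 each). *Cacng4* was at 0.0 with edgeR's filter, and leaving out each library in turn gave -1.04 to 0.16. *Scn9a* was called higher in 4 of 17 settings. Genes with under 100 reads in all, among them *Scn1a*, *Scn8a*, *Cacna1b* and *Cacng2*, are limited by depth.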

Other observations

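The muscle libraries also differed among themselves in the channel genes that were higher in spindle. Of the 19, 9 had their highest muscle value in muscle 12 and 8 in muscle 10, 1 in muscle 11 and 1 in muscle 16. Muscle 12 and muscle 10 also had the highest odorant receptor sums among muscle libraries, at 63.3 and 49.9 CPM. Muscle 10 had the lowest total count of the muscle libraries, at 9690335. The part of either in these values was not tested. *Cacna1g* had 10.2 CPM in muscle 10 and 6.74 CPM in muscle 12.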
